A study of Arabidopsis thaliana with 18 samples.

Results

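Some Arabidopsis thaliana genes had mRNA listed in only one of a pair of parental accessions, Col and C24, both carrying mutations in CURLY LEAF (CLF). They were taken as gene IDs listed at 0 RPKM (read count scaled to gene length and to the mapped reads of the library) in all 3 mRNA libraries of one clf parent and at a mean of at least 5 RPKM in the other. IDs that occur on several lines of a file and SADHU elements, a family of retroelements, were left out. The rule found 61 of 32992 genes, of which 49 were expressed in Col clf and listed at 0 in C24 clf, and 12 were expressed in C24 clf and listed at 0 in Col clf. These genes were chosen by the parental mRNA values, so the difference between the parents is given as a description with no test. The F1 libraries and the chromatin data were not used by the rule.

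Shoots of 14-day-old seedlings were studied, grown on Murashige and Skoog medium with sucrose in short days (8 h of light, 22 °C; 16 h of darkness, 18 °C). The mRNA came from Col clf (the insertion line SALK_139371), from C24 clf (an allele from an ethyl methanesulfonate screen that changes an amino acid in the SET domain) and from the F1 of those mutants, with 3 libraries each. Every mRNA library therefore carried clf mutations, and accession and clf allele differed together between the parents. Peaks of histone H3 lysine 27 trimethylation (H3K27me3) were listed for wild-type Col, wild-type C24 and their wild-type F1, with 2 lists each, and for Col clf, C24 clf and the clf F1, with 1 list each. Wild-type mRNA was not analysed here. The labels do not say that replicates were separate cultures, so p-values measure only the spread between these samples.

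CLF is a methyltransferase subunit of Polycomb repressive complex 2, which places H3K27me3 on genes that are kept off, among them regulators of flowering. Accessions of Arabidopsis differ in which genes they carry and in how repetitive and recently duplicated genes are silenced, so a gene can be expressed in one parent and silent in the other. In an F1 that inherits 1 active and 1 silent copy, additive expression lies at the mid-parent, which for these genes is 50% of the expressing parent.

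Reads were placed on the TAIR10 genome, which is the Col sequence. For the genes listed at 0 in C24 clf, absence of mRNA cannot be told apart from reads that were not placed because the C24 sequence differs or is missing. A listed 0 is also not proof of silence, since the chlorophyll-binding protein gene CAB1 (AT1G29930) was listed at 0 in all 9 libraries. In whole shoots, fewer cells expressing a gene and less RNA per cell cannot be told apart.

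The number of genes at 0 in all 3 libraries was 10008 in Col clf, 9583 in C24 clf and 9416 in the F1. Estimated depth, from the step size of low values, ran from 14.9 M reads in C24 clf replicate 3 to 24.05 M in C24 clf replicate 1. CLF itself (AT2G23380) was at 1.21, 0.99 and 1.37 RPKM in Col clf, at 7.20, 7.14 and 8.35 in C24 clf and at 4.35, 3.93 and 4.08 in the F1. All 4 leaf markers were high in every library, with sums from 24164 to 32404 RPKM. Of the 6 root markers only PYK10 exceeded 1 RPKM, and SHV2 was at 0 throughout. The summed level of 5 seed markers was 1.7, 5.37 and 0.38 RPKM in Col clf, 272, 105 and 125 in C24 clf and 71.9, 5.43 and 51.0 in the F1, with CRU2 at 0 in all libraries. The 4 flower markers summed to 71.0 to 90.1 RPKM in Col clf, 290 to 345 in C24 clf and 146 to 170 in the F1. The rRNA gene AT3G41979 reached 17796 RPKM in Col clf replicate 2, 14696 in F1 replicate 2 and 16022 in F1 replicate 3.

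The genes expressed in Col clf ranged from 5.02 to 320 RPKM, with a median of 10.4, and 6 of the 49 were at 50 RPKM or more. The highest was AT1G25098, a long noncoding RNA on chromosome 1, at 320.54, 298.06 and 340.74 RPKM in Col clf and at 166.08, 147.25 and 136.31 in the F1. The noncoding RNA AT1G25175 followed at 107.97, 110.52 and 132.72 RPKM in Col clf and 64.46, 56.34 and 60.97 in the F1. The protein-coding gene AT1G24996, from the same stretch of chromosome 1, was at 80.46, 76.55 and 90.28 RPKM in Col clf and 39.65, 44.41 and 47.53 in the F1. In each of the 3 genes, all F1 libraries lay below all Col libraries and well above 0.

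Next in level were AT5G49440, at 69.81, 74.92 and 87.65 RPKM in Col clf and 40.69, 44.08 and 49.02 in the F1, and AT4G34881, at 66.43, 78.31 and 77.10 in Col clf and 40.43, 40.92 and 39.03 in the F1. ARGAH2 (AT4G08870) encodes an arginase, an enzyme that splits arginine into ornithine and urea. It was at 91.51, 64.09 and 51.68 RPKM in Col clf, 0 in all C24 libraries and 46.94, 27.75 and 26.02 in the F1. Replicate 1 was the highest of both groups, and the groups did not overlap. The pseudogene AT4G16870 was at 39.51, 41.38 and 44.35 RPKM in Col clf and 21.42, 21.77 and 18.72 in the F1. AT5G49640, AT5G24735, AT5G42825, AT1G23960 and AT1G76960 complete the 12 highest, with means between 34.2 and 43.8 RPKM. Replicates were close, with a median coefficient of variation of 7.64% in Col clf.

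The genes expressed in C24 clf were lower, from 5.3 to 14.3 RPKM with a median of 7.02, and none reached 50 RPKM. AT3G28320 was at 13.01, 14.69 and 15.30 RPKM in C24 clf and 5.54, 6.62 and 5.96 in the F1. AT5G17100 was at 15.12, 13.35 and 13.22 RPKM in C24 clf and 6.17, 6.0 and 7.07 in the F1. The remaining 10 had means of 9.02 RPKM or less.

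MLP31 (AT1G70840) belongs to the major latex protein-like family. It was at 10.94, 5.62 and 5.27 RPKM in C24 clf, and at 0.80, 0.00 and 1.85 in the F1. AtMT4b (AT2G23240) encodes a metallothionein, a small cysteine-rich protein that binds metal ions. It was at 9.40, 3.24 and 7.63 RPKM in C24 clf and at 1.26, 0.45 and 1.38 in the F1. Both genes were lowest in F1 replicate 2, the F1 library with the lowest seed-marker sum, and their C24 values were highest in replicate 1, where that sum was also highest. Between F1 replicates 1 and 3 the order was opposite, with the sum higher in replicate 1 and both genes higher in replicate 3. Between C24 clf replicates 2 and 3, AtMT4b followed the sum and MLP31 did not. The part of seed transcripts in these levels was not tested. The median coefficient of variation in C24 clf was 15.1%.

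Of the 61, 39 are annotated as protein coding, 11 as pseudogenes and 11 as noncoding RNAs, and all 11 noncoding RNAs were expressed in Col clf. Among the 17819 genes tested, which had at least 1 RPKM in at least 3 libraries, 97.1% are protein coding, 0.853% are pseudogenes and 1.31% are noncoding RNAs. Among all 32992 genes listed, pseudogenes make up 12.9% and noncoding RNAs 3.89%. Only 4 of the 61 have a gene symbol beyond the locus tag: ARGAH2, MLP31, AtMT4b and DRP4D, a transcribed pseudogene of the dynamin-related family. The locus tag is the sole symbol of 93.4% of the 61 and of 55.0% of the genes tested. Their median span was 1536 bp, beside 2444 bp over the genes tested. All 5 chromosomes held genes of both kinds.

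The level of 5 RPKM divides a continuous range. Just inside it on the Col side were AT1G27580 at 5.02 RPKM, DRP4D at 5.03, AT3G52535 at 5.54, AT4G08110 at 6.01 and AT4G01915 at 6.16. Just outside were AT3G46385 at 4.9, AT4G09250 at 4.71, AT1G66660 at 4.6, AT5G42730 at 4.58 and RPM1, a disease resistance receptor, at 4.36. On the C24 side AT5G37120 at 5.3, AT5G35375 at 5.51, AT1G36078 at 5.71, AT5G40855 at 6.19 and AT4G24420 at 6.60 lay inside. AT2G05580 at 4.23, AT5G47260 at 4.19, AT3G29078 and AT2G15555 at 3.55 and AT3G43310 at 3.30 lay outside.

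In the F1 the genes expressed in Col clf had means with a median of 48.6% of the Col mean, with quartiles of 43.7% and 51.9%, and 44 of the 49 (89.8%) lay between 40% and 60%. Over all genes tested, 83.3% had an F1 level in that band of the sum of both parents. Summed over the 49 genes, Col clf held 1362, 1319 and 1437 RPKM and the F1 702, 663 and 644, which is 48.8% ± 2.15 of the Col mean (SD, n = 3). The F1 libraries were below every Col library for all 49 genes. How often this holds over all genes tested was not counted. These genes were chosen as silent in C24 clf, so additive expression alone places the F1 below Col clf.

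**Figure D1:**
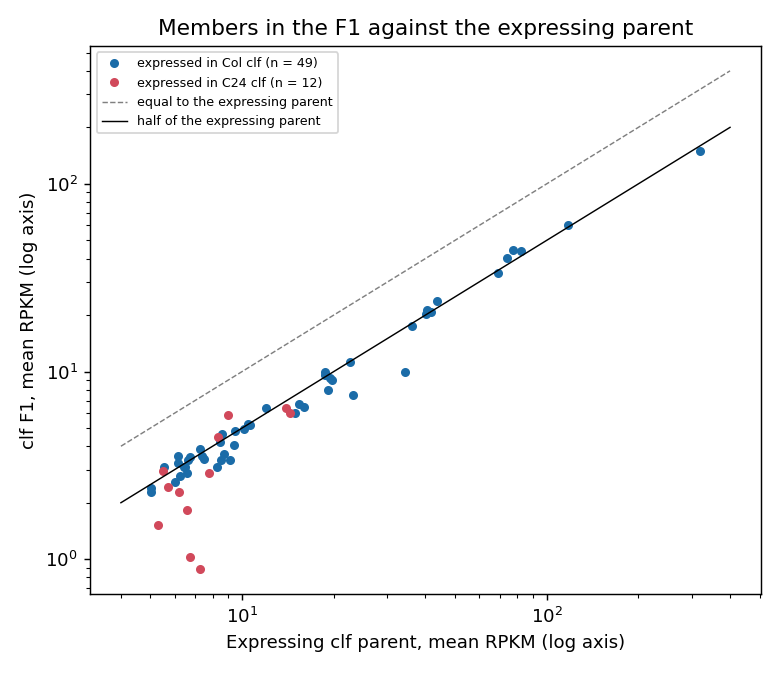
Mean RPKM in the clf F1 (y axis, log) against mean RPKM in the expressing clf parent (x axis, log), 1 point per gene. The 49 genes expressed in Col clf (blue) follow the solid line at 50% of the parent, and the lowest points are MLP31 and AtMT4b among the 12 genes expressed in C24 clf (red).

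The genes expressed in C24 clf were lower in the F1 relative to their parent. The median was 39.6% of the C24 mean, with quartiles of 28.4% and 48.0%, and 5 of the 12 lay between 40% and 60%, 6 below and 1 above. Summed over the 12 genes, C24 clf held 102, 92.8 and 95.2 RPKM and the F1 37.3, 38.1 and 40.6, which is 39.9% ± 1.76 of the C24 mean (SD, n = 3). AT4G07965 was the highest, at 65.3%, with 10.81, 7.63 and 8.62 RPKM in C24 clf and 5.47, 5.24 and 6.95 in the F1. MLP31 was the lowest, at 12.1%. The difference between the 49 and the 12 genes was not tested, and the parental means in these ratios are those that chose the genes.

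Over all genes tested, the F1 held a median of 45.3% of the sum of both parents, with quartiles of 42.2% and 48.4%. Some genes were close to 0 but not listed at 0 in all 3 libraries of one parent. They gave a median of 49.1% where Col expressed them (33 genes) and 30.2% where C24 did (48 genes). Among them, all F1 libraries lay below all libraries of the expressing parent in 28 of the 33 and 43 of the 48. Scaling each library by its median ratio moved the medians of the 49 and the 12 genes to 50.4% and 45.3%. Of the 61 genes, 60 were above 0 in every F1 library, the exception being MLP31 in F1 replicate 2.

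**Figure D2:**
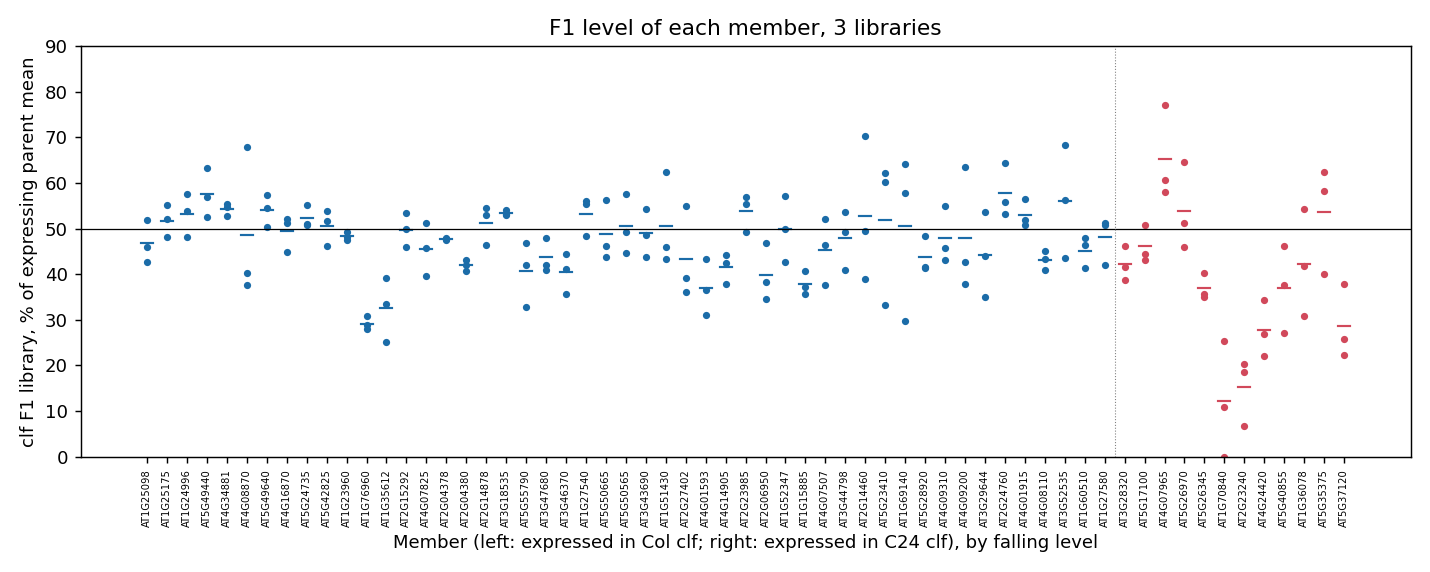
F1 level of each of the 61 genes as a percentage of the mean of its expressing parent (y axis), with 3 points for the F1 libraries and a bar for their mean. The horizontal line marks 50%. AT1G76960 and AT1G35612 lie lowest among the 49 genes on the left, and MLP31 and AtMT4b lie lowest among the 12 on the right.

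The F1 was then compared with the arithmetic mid-parent for each gene with limma on log2(RPKM + 1), a scale that understates changes of low genes. Across the 17819 genes, 66 (0.37%) were higher and 1133 (6.36%) lower than the mid-parent at an adjusted p under 0.05, and the median difference was -0.12. A fit with a replicate block gave other counts: 287 genes were higher and 4185 lower, and 3 of the 49 and 5 of the 12 genes were lower. Among the 49 genes expressed in Col clf, 0 were higher and 2 were lower, with a median of -0.04. At an unadjusted p under 0.05, limma gave 0 higher and 8 lower of the 49. Among the 12 genes expressed in C24 clf, 0 were higher and 5 were lower, with a median of -0.27. At an unadjusted p under 0.05, 1 of the 12 was higher and 7 were lower. At the same limit, 318 of the 17819 genes were higher and 5373 lower. The mid-parent of these genes comes from the parental values that chose them. A noisy gene chosen on a high parental mean leans towards a lower F1, and the size of this lean was not tested. The rule also sets the silent parent to 0 in all 3 libraries, which lowers the spread shared by the groups. With the spread taken without that parent, 2 of the 49 and 1 of the 12 were lower. Median-ratio scaling moved the median of all genes to -0.01 and left 205 of all genes, 1 of the 49 and 1 of the 12 lower. Leaving out 1 library gave 164 to 3230 of all genes, 1 to 5 of the 49 and 0 to 5 of the 12, the 0 without F1 replicate 2. Leaving out Col clf replicate 2 and F1 replicates 2 and 3, which held the most rRNA, when 3 genes of the whole table were still lower, none of the 61 was called; the lone F1 library was then assumed to vary like the other groups.

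AT1G76960 fell below the mid-parent by 0.72 on the log2 scale (SE 0.085, adjusted p = 0.00158, limma). It was at 36.70, 35.27 and 30.71 RPKM in Col clf and 9.85, 9.56 and 10.54 in the F1, so that all 3 F1 libraries were near 29.2% of the parent. The pseudogene AT1G35612 fell by 0.58 (SE 0.12, adjusted p = 0.0214, limma), with 22.35, 23.60 and 23.24 RPKM in Col clf and 7.70, 9.03 and 5.79 in the F1. The call of AT1G35612 ended without Col clf replicate 3, without F1 replicate 3 and under median-ratio scaling (adjusted p = 0.0593).

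AT4G24420 fell below the mid-parent by 0.61 (SE 0.115, adjusted p = 0.0156, limma). It was at 5.86, 6.53 and 7.40 RPKM in C24 clf and 2.26, 1.77 and 1.46 in the F1. Under median-ratio scaling it fell by 0.47 and kept its call (adjusted p = 0.0463), and the call ended without C24 clf replicate 3, F1 replicate 2 or F1 replicate 3. MLP31 (AT1G70840) fell by 1.37 (SE 0.307, adjusted p = 0.0278, limma), and the call ended without F1 replicate 2, the library at 0 (log2 difference -0.98), and without C24 clf replicate 1 (-1.11). It also ended under median-ratio scaling (adjusted p = 0.0867, limma) and with the spread taken without the silent parent (adjusted p = 0.0526, limma). AtMT4b (AT2G23240) fell by 1.06 (SE 0.267, adjusted p = 0.0410, limma).

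The pseudogene AT5G37120 fell by 0.54 (SE 0.131, adjusted p = 0.0365, limma), with 5.6, 5.98 and 4.32 RPKM in C24 clf and 1.18, 1.37 and 2.01 in the F1. The pseudogene AT5G26345 fell by 0.34 (SE 0.085, adjusted p = 0.0411, limma), with 8.15, 7.66 and 7.60 RPKM in C24 clf and 3.14, 2.79 and 2.73 in the F1. AtMT4b, AT5G37120 and AT5G26345 were called in 6, 7 and 4 of 17, 17 and 18 alternative fits. With the spread taken without the silent parent, their adjusted p were 0.0689, 0.0602 and 0.0585 (limma). None of the 3 kept the call under median-ratio scaling, nor without Col clf replicate 1 or 3, C24 clf replicate 1 or F1 replicate 2. AtMT4b also lost it without C24 clf replicate 3 or F1 replicate 3, AT5G37120 without C24 clf replicate 2, and AT5G26345 without C24 clf replicate 2 or 3 or F1 replicate 3.

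Some of these genes lay close together. Within 5 annotated positions, 4 of the 49 genes expressed in Col clf had another of the 61 nearby. They were the pair AT1G27540 and AT1G27580 and the overlapping pair AT2G04378 and AT2G04380. Within 10 positions 9 of the 49 had one, while none of the 12 genes expressed in C24 clf did. How often randomly chosen genes lie this close was not counted. The overlapping pair AT2G04378 and AT2G04380 were at similar levels, 19.4 ± 1.14 and 19.1 ± 1.01 RPKM in Col clf and 9.25 ± 0.05 and 8.02 ± 0.22 in the F1 (SD, n = 3). Reads of such overlapping genes cannot be told apart, since no strand is stated.

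The densest stretch ran along chromosome 1 from AT1G24800 to AT1G25230 and was picked after its values were seen. It holds the 3 highest of the 49 genes, interleaved with 4 genes of the LpxC family, named for a deacetylase of lipid A synthesis in bacteria. LpxC2 was at 63.75, 67.85 and 76.18 RPKM in Col clf and at 0, 0 and 0.05 in C24 clf. LpxC3 was at 11.08, 9.92 and 13.56 RPKM in Col clf and at 0.09, 0.15 and 0.09 in C24 clf. AT1G24909, AT1G25083 and AT1G25155 ran the other way, listed at 0 in all Col libraries and between 1.67 and 2.15 RPKM in C24 clf. At the edge of the stretch, ASB1, a subunit of anthranilate synthase in tryptophan synthesis, had 11.63, 9.67 and 10.97 RPKM in Col clf and 10.96, 10.5 and 9.51 in C24 clf. Near-identical copies in this stretch may share reads, so the split among them is uncertain. Elsewhere, AT4G09200 and AT4G09310 had equal spans of 2637 bp and means of 6.45 and 6.49 RPKM in Col clf. Likewise AT5G50565 and AT5G50665 had equal spans of 2066 bp and means of 10.4 and 10.6 RPKM. Whether the genes of these pairs share reads was not tested.

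**Figure D3:**
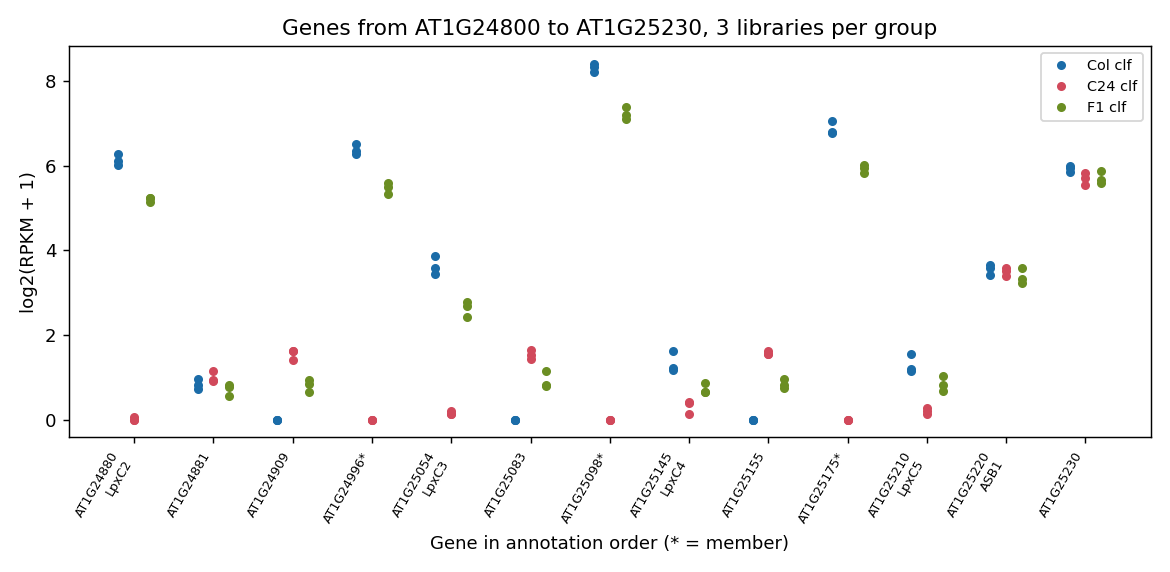
log2(RPKM + 1) of genes from AT1G24800 to AT1G25230 in annotation order, with 3 libraries each of Col clf (blue), C24 clf (red) and the F1 (green). Only genes with a mean of at least 1 RPKM in some group are drawn, and asterisks mark the 3 genes listed at 0 in C24 clf, where the F1 lies between the parents. ASB1 and AT1G25230 at the right edge are at similar levels in both parents.

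Of 209 tested neighbours within 5 positions of the 49 genes, 11 (5.26%) were at least 4-fold lower in C24 clf on the log2(RPKM + 1) scale, and this share was 0.909% over all genes tested. Without neighbours that overlap one of the 49, it was 8 of 201 (3.98%). Within a 2-fold range lay 84.2% of the 209 neighbours and 92.9% of all genes tested. Near the 12 genes expressed in C24 clf, 1 of 54 neighbours (1.85%) was at least 4-fold higher in C24 clf, beside 0.904% over all genes tested. The 61 genes were left out of the neighbours but kept among all genes tested, where they pass the 4-fold limit by their selection.

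Among the 11 neighbours was PMAT2, a malonyltransferase of phenolic glucosides, at 12.22, 14.01 and 13.34 RPKM in Col clf and 1.60, 1.31 and 1.19 in C24 clf. DFR, the dihydroflavonol reductase of anthocyanin synthesis, was at 20.39, 18.79 and 17.55 RPKM in Col clf and 2.97, 2.22 and 2.54 in C24 clf. Close to AT4G16870, between the disease resistance genes RPP4 and SNC1, AT4G16880 was at 17.19, 13.86 and 12.25 RPKM in Col clf and 0.88, 1.09 and 1.57 in C24 clf. RPP4 had 39.06, 38.86 and 41.36 RPKM in Col clf and 38.73, 38.75 and 39.46 in C24 clf, and SNC1 was higher in C24 clf, at 68.66, 72.18 and 70.84 RPKM against 39.32, 36.88 and 36.92 in Col clf.

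AT3G28320, the highest of the genes expressed in C24 clf, has AT3G28310 close by, at 0, 0 and 0.14 RPKM in Col clf and 3.73, 5.86 and 5.19 in C24 clf. The AT14A gene AT3G28300 ran the other way, at 10.2, 12.04 and 9.97 RPKM in Col clf and 0.24, 0.27 and 0.26 in C24 clf. MLP31 lies beside MLP28, of the same family, which was at 147.44, 151.22 and 134.3 RPKM in Col clf and 188.57, 179.93 and 172.09 in C24 clf. MLP43, in the same stretch, was lower in C24 clf, at 86.9, 84.0 and 66.19 RPKM against 143.42, 149.8 and 129.13 in Col clf. MLP34 was low in both, at 1.23, 1.89 and 3.06 RPKM in Col clf and 1.69, 1.18 and 0.79 in C24 clf.

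A listed gene with a value overlapped 18 of the 61, 17 of them expressed in Col clf. The share over all genes was not counted. AT4G34881 overlaps XDH1, a xanthine dehydrogenase gene, which had 16.38, 15.83 and 15.67 RPKM in Col clf and 17.01, 18.61 and 19.71 in C24 clf. AT5G42825 overlaps U2AF35B, a splicing factor gene, with 49.34, 49.55 and 57.32 RPKM in Col clf and 50.56, 55.4 and 56.62 in C24 clf. AT3G47675, which overlaps AT3G47680, was itself near 0 in C24 clf, at 0, 0.14 and 0 RPKM, and at 10.51, 7.47 and 10.01 in Col clf. AT5G28919, which overlaps AT5G28920, was at 0, 0 and 0.04 RPKM in C24 clf and 11.34, 10.55 and 11.26 in Col clf.

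H3K27me3 peaks overlapped a minority of the genes expressed in Col clf, and also a minority of all genes. A peak counted where it overlapped a gene by at least 1 base. The median span was 1631 bp for the 49 genes and 953.5 bp for the 12, beside 2444 bp over genes tested. The shares were not compared at equal span. At least 1 of the 9 lists had a peak over 12 of those 49 (24.5%), over 6 of the 12 genes expressed in C24 clf and over 36.3% of all genes with a position (29.3% of genes tested). At least 1 of the 3 C24 lists marked 6 of the 49 (12.2%) that were listed at 0 in C24 clf, beside 30.3% of all genes (23.8% of genes tested). At least 1 of the 3 Col lists marked 4 of the 12 (33.3%) that were listed at 0 in Col clf, beside 27% of all genes (18.8% of genes tested). None of the 61 was marked in all 9 lists, beside 4.34% of all genes and 2.17% of genes tested. The highest genes, AT1G25098, AT1G25175 and AT1G24996, had no peak in any list. The lists differ in length, from 2898 peaks in wild-type Col replicate 2 to 6377 in C24 clf, and an unlisted gene is not shown to lack the mark. Peaks are also placed on TAIR10, the Col sequence. For genes listed at 0 in C24 clf, absence of a C24 peak therefore cannot be told apart from C24 reads that were not placed. The Polycomb targets AP3 and PI carried a peak in all 9 lists, and AG in 5.

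**Figure D4:**
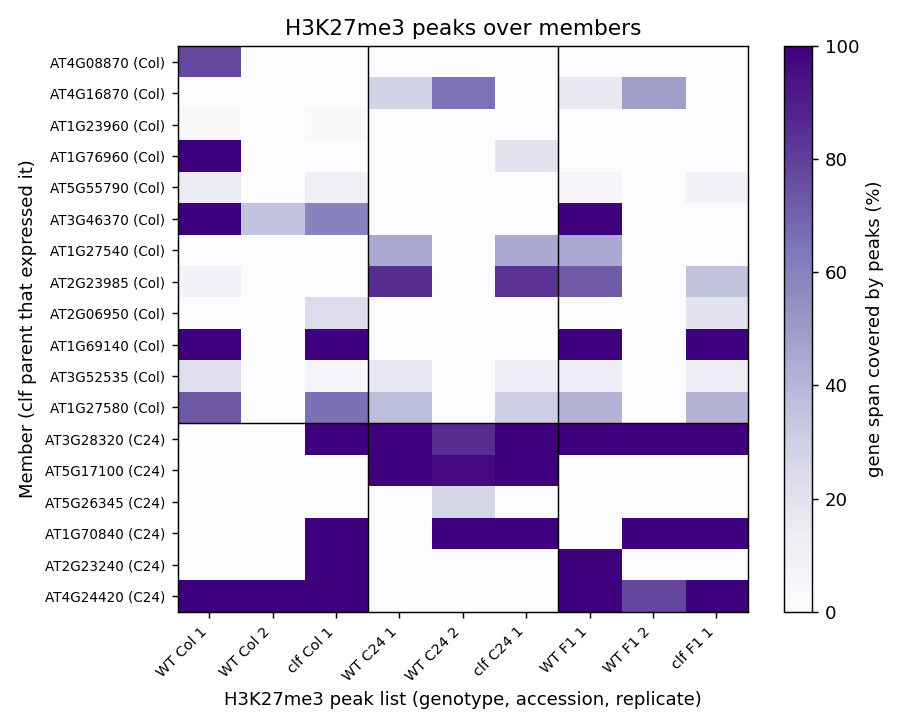
Share of each gene covered by H3K27me3 peaks (colour, 0 to 100%) in the 9 peak lists (columns) for the 18 genes with a peak in any list (rows, with the parent that expressed them). AT4G24420 is covered in all Col and F1 lists and in no C24 list, and AT5G17100 in the C24 lists alone.

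Both wild-type lists of one accession and neither of the other marked 5 genes. Peaks in C24 only were found at 1 of the 49 and 2 of the 12 genes, beside 1.32% of all genes (0.803% of genes tested), and peaks in Col only at 1 of the 49 and 1 of the 12, beside 0.326% (0.0961% of genes tested). These counts rest on 2 wild-type lists per accession and were not tested. Without wild-type Col replicate 2, the shortest list, the count rose from 5 to 10. Over all 32248 genes with a position, the counts then also rose, from 427 to 703 for C24 only and from 105 to 1586 for Col only.

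Set beside the clf mRNA, the wild-type mark lay on the silent side for AT4G24420 and AT4G16870. AT4G24420, expressed in C24 clf, had peaks in all 3 Col lists and all 3 F1 lists. In wild-type Col replicate 1 the peak spanned chr4:12626202-12629668 (TAIR10), with 1769 tags and a 4.54-fold enrichment as given by the authors. In Col clf it spanned chr4:12626445-12629415, with 1062 tags and a 6.49-fold enrichment. The same gene was below the mid-parent in the clf F1, as given above. The pseudogene AT4G16870, expressed in Col clf, had peaks over 28.0% and 65.1% of its span in the wild-type C24 lists and 15.6% and 48.4% in the wild-type F1 lists, and none in the 3 clf lists.

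The wild-type mark lay on the expressed side for the other 3. AT5G17100, expressed in C24 clf, was covered to 100%, 96.7% and 100% in wild-type C24 replicates 1 and 2 and C24 clf, and in no Col or F1 list. The C24 clf peak spanned chr5:5621331-5625053, with 1427 tags. AT3G28320, also expressed in C24 clf, was covered in both wild-type C24 lists and in all F1 lists, but in neither wild-type Col list. In clf it was covered to 100% in C24 and to 100% in Col, so the clf lists did not divide the parents. AT3G46370, expressed in Col clf, was covered to 100% and 34.1% in wild-type Col and to 59.3% in Col clf, with a peak in 1 of the F1 lists.

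Other marked genes did not divide by accession in both replicates. MLP31 was covered to 100% in Col clf, C24 clf, the clf F1, wild-type C24 replicate 2 and wild-type F1 replicate 2, and had no peak in the other 4 lists. AtMT4b was covered in Col clf and wild-type F1 replicate 1 alone. AT1G69140, expressed in Col clf, was covered to 100% in wild-type Col replicate 1, Col clf, wild-type F1 replicate 1 and the clf F1, and in no C24 list. AT1G27540, expressed in Col clf, was covered to 44.7% in wild-type C24 replicate 1, 44.5% in wild-type F1 replicate 1 and 44.3% in C24 clf, and in no Col list. AT2G23985, expressed in Col clf, was covered to 85.5% in wild-type C24 replicate 1 and 84.3% in C24 clf, and to 7.61% in wild-type Col replicate 1. In the F1 it was covered to 72.05% in wild-type replicate 1 and to 34.81% in clf. ARGAH2 was covered to 77.5% in wild-type Col replicate 1 alone. AT1G76960 was covered to 100% in that list, to 19.6% in C24 clf and to 0.3% in wild-type F1 replicate 1.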

How the data were processed

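The mRNA files hold RPKM values, deposited by the authors as 1 file per library with 34133 lines. The H3K27me3 files hold peak lists with a count of tags, a score and a fold enrichment (a ratio) per peak, as deposited by the authors. Bowtie, TopHat and the build TAIR10 are named in the submitters' processing notes; read counter, strandedness and peak caller: not given in the sources used here. Lines of 567 repeated IDs (1141 lines) were left out. Gene names, types and positions came from a RefSeq table of TAIR10.1, which matched 32248 IDs (97.7%); peak overlaps set TAIR10 peaks against these positions, which is a limit of those counts.

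Genes with at least 1 RPKM in 3 of 9 libraries were tested with limma 3.58.1 (R 4.3.3, trend) on log2(RPKM + 1) over all 3 groups, with the mid-parent as the arithmetic mean of the fitted parental levels, a delta-method standard error and Benjamini-Hochberg adjustment. The script was tested on simulated data. Between 67.8% and 75.4% of low values came out as whole reads within 4%, so no count test was run and depths are estimates. No pair of libraries shared more than 0.971% of values. Same-numbered libraries deviated together (correlations 0.169 to 0.426 over 9 pairs, and -0.28 to -0.002 over the 18 others). The main fit had no replicate block, so its standard errors and adjusted p ignore these pairs. With the replicate block, run as an alternative, 287 genes were higher and 4185 lower.

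The named genes were CLF, the 12 highest of each direction, those called in the F1, those beside another of the 61, those marked in one accession and those nearest the threshold. The genes and lists were chosen with earlier results of these data known. Planned protein alignment of tandem relatives and classes by product name were not run, as no protein sequences or product names were used here. Alternatives covered pseudocount, filter, scaling, replicate block, mid-parent definition, left-out libraries, and peak overlap and score.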

Additional observations from a re-analysis of the deposited data

How the results depend on the processing

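Requiring at least 2 or 10 RPKM gave 76 or 26 genes expressed in Col clf and 28 or 2 in C24 clf, and a silent-parent mean under 0.1 RPKM gave 29 in C24 clf. Leaving out a parental library gave 47 to 53 and 12 to 17.

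The genes higher than the mid-parent numbered 42 without a filter, 101 with quantile normalization, 112 with median-ratio scaling, 287 with the replicate block, 231 against the mean of parental logs and 0 without the 3 libraries richest in rRNA, and 15 to 132 with 1 library left out. The genes lower numbered 511, 292, 205, 4185, 684 and 3 under the same alternatives, and 164 to 3230 with 1 library left out; the highest counts in both directions came without F1 clf replicate 1. The replicate block ended none of the 7 calls and gave 3 lower of the 49 and 5 of the 12.

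Of the 49 genes, 1 was lower without a filter, with quantile normalization and with median-ratio scaling, 0 against the mean of logs and without the rRNA-rich libraries, and 1 to 5 with 1 library left out. Of the 12, 1 was lower without a filter, with quantile normalization, with median-ratio scaling and with the spread taken without the silent parent, 2 with a filter of 5 RPKM, 0 against the mean of logs and without the rRNA-rich libraries, and 0 to 5 with 1 library left out. The mean of parental logs lies far below the arithmetic mid-parent where 1 parent is at 0: against it 48 of the 49 and 6 of the 12 were higher, and the difference reversed to 1.72 for AT4G16870, 0.89 for AT1G76960, 0.78 for AT1G35612, 0.81 for AT3G46370, 0.84 for AT3G28320, 0.94 for AT5G17100, 0.39 for AT5G26345 and 0.0309 for AT4G24420. For the other changes the cause was not tested.

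The median F1 level of the 12 genes was 45.3% with median-ratio scaling and 36.5% to 42.2% with 1 library left out. Peaks covering at least 50% of the gene left 7 of the 49 marked and 3 of the 61 marked in one accession. With 1000 bases on both sides 8 of the 61 were marked in one accession, and leaving out 1 list gave 5 to 10. Over all 32248 genes with a position, leaving out 1 list gave 427 to 2277 for C24 only and 105 to 1586 for Col only. Shares over all genes under the cover and flank settings are not given here. Within 10 positions, 9 of the 49 were near another of the 61. An identity of 60% and an upstream flank alone were not run. At least 10 RPKM was reached by 2 of the 12 genes and 26 of the 49, so low levels limit both.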

Other observations

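No gene listed at 0 in all 6 parental libraries reached 1 RPKM in the F1, and no gene listed at 0 in all F1 libraries had 1 RPKM in both parents (0 genes each). Keeping IDs that occur on several lines would add 3 genes to those expressed in Col clf, for 52 in place of 49.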
